A study of Homo sapiens with 6 samples.

Results

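Interferon-stimulated genes are the genes that cells switch on when type I interferon reaches its receptor, and they were examined in megakaryoblastic Meg-01 cells with and without propionate (C3). The members were chosen by symbol from a list of type I interferon receptor subunits, transcription factors and response genes. The list has 45 symbols, which name 44 genes because DDX58 is the older symbol of RIGI. All 44 were found among the 58735 Ensembl genes of the count table. Of these, 39 had at least 10 counts in at least 3 libraries and were tested, and 5 (IFIT5, OAS2, IFI27, IFI44L and IRF9) did not reach that minimum.

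Meg-01 is an established human megakaryoblastic cell line, and C3 is a short-chain fatty acid produced by gut bacteria. The control group consisted of 3 libraries of untreated Meg-01 cells, and the C3 group of 3 libraries of Meg-01 cells given 500 µM sodium propionate for 48 h according to the labels, while the methods also name a shorter incubation. The comparison addresses how C3 changes gene expression in these cells. By the legend of the study these are technical replicates, and p-values therefore measure only the spread between these samples. The table holds raw counts, with totals of 19318595, 18050689 and 16159449 in control libraries 1, 2 and 3 and of 16513025, 18652292 and 22821722 in C3 libraries 1, 2 and 3.

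Type I interferons bind a receptor made of IFNAR1 and IFNAR2, and the attached kinases JAK1 and TYK2 then pass the signal to transcription factors, among them STAT2 and IRF9. STAT2 and IRF9 bind the interferon-stimulated response element (ISRE) in promoters as parts of a complex, and another promoter element of interferon signalling is the GAS. The response genes encode sensors of foreign RNA, enzymes that degrade RNA or block its translation, membrane proteins that stop viral entry or release, and feedback inhibitors. Megakaryocytes and platelets are known to carry interferon response transcripts during infection and autoimmune disease.

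Of the 39 tested genes, 3 were higher after C3 (BST2, ISG20 and IFI6) and 2 were lower (IFI35 and USP18). These differentially expressed genes (DEGs) passed an adjusted p of 0.01 (edgeR's quasi-likelihood test, adjusted by Benjamini-Hochberg) and differed more than 1.3-fold in either direction. Of all 15078 tested genes, 5.05% were higher DEGs and 1.47% were lower DEGs, against 7.69% and 5.13% of the tested interferon genes. With so few genes per direction these shares are a description, and nothing particular to the list is read from them. DESeq2 called 2 higher and 1 lower and limma-voom 3 higher and 3 lower, and at an unadjusted p below 0.05 edgeR had 7 higher (17.9%) and 9 lower (23.1%), where all tested genes had 16.8% higher and 15.3% lower. Without control library 3 or without C3 library 3, the number of lower interferon DEGs was 0, and without control library 2 or C3 library 2 it was 1. Among all genes, the 222 lower DEGs became 129 without C3 library 3 and 340 without C3 library 1.

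The interferon genes did not move in one direction. The median log2 fold change was -0.0097 with a range from -0.93 to 1.22, and the median of all tested genes was 0.0021. Values were positive in 19 genes and negative in 20. The C3 libraries lay entirely above the control libraries in 8 genes and entirely below in 8, while 17.5% of all tested genes were above and 16.9% below. These correspond to 20.5% of the interferon genes in each direction, near the shares of all genes. At an adjusted p below 0.05 with the same fold change gate, IRF7 was added to the lower genes, and the counts were 3 higher and 3 lower, where all tested genes had 7.21% higher and 2.09% lower.

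**Figure D1:**
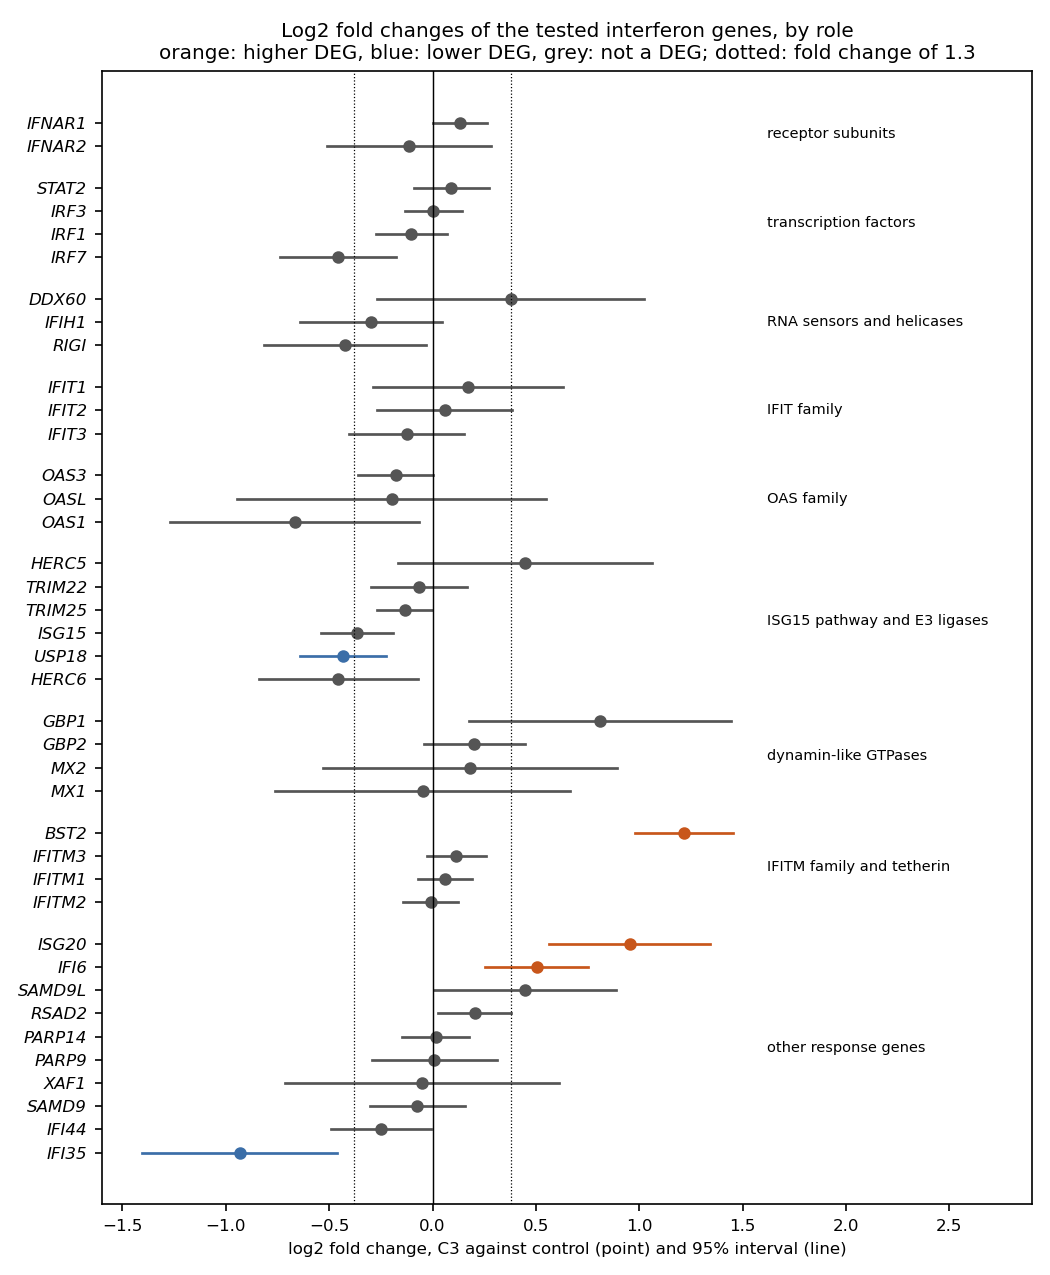
Log2 fold change (C3 against control, horizontal axis) of the 39 tested interferon genes grouped by role, as points with lines for 95% intervals and dotted lines at a fold change of 1.3. The values spread on both sides of 0, from -0.93 (IFI35) to 1.22 (BST2), with 3 higher DEGs in orange and 2 lower DEGs in blue.

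For the 34 tested genes that were not DEGs, the 95% intervals show how large a change the data allow. The interval lay inside a fold change of 1.3 either way in 13 genes, among them IFITM1, IFITM2, IFITM3, IFNAR1, IRF1, IRF3, STAT2 and PARP14. It lay inside a fold change of 2 either way in 30 genes. The exceptions HERC5, OAS1, DDX60 and GBP1 had mean normalized counts of only 24.1 to 33.04 over the 6 libraries.

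BST2 (tetherin), a membrane protein that holds budding virus particles at the cell surface, had the largest difference among the interferon genes. Its TMM-normalized counts, which are counts scaled to a common library size, were 127, 153 and 162 in the control libraries and 346, 361 and 320 in the C3 libraries. Each C3 library was above each control library, and the gap between the groups was wider than the spread within either. The mean was 147 ± 18.1 in control and 342 ± 20.7 after C3 (SD, n = 3 libraries each). BST2 rose by a log2 fold change of 1.22 (SE, the standard error, 0.12; 95% interval 0.98 to 1.45), with an adjusted p of 3.05e-08 from edgeR's quasi-likelihood test, which ranked 31 among the 15078 tested genes by p. In bulk RNA, more transcript per cell and more cells that express the gene cannot be told apart.

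ISG20, a 3' to 5' exonuclease that degrades single-stranded RNA, had normalized counts of 50.9, 64.7 and 53.7 in control and 125, 82.3 and 121 after C3. C3 library 2 was the lowest of its group but still above the highest control library. The mean rose from 56.5 ± 7.27 to 109 ± 23.6 (SD, n = 3 each), a log2 fold change of 0.95 (SE 0.19) with an adjusted p of 0.000772 from edgeR's test. IFI6, a small membrane protein of the endoplasmic reticulum and mitochondria with antiapoptotic activity, had normalized counts of 155, 194 and 178 in control and 278, 231 and 240 after C3. The groups did not overlap, although control library 2 and C3 library 2 were not far apart. The mean was 176 ± 19.7 in control and 249 ± 24.9 after C3 (SD, n = 3 each), and the log2 fold change was 0.50 (SE 0.12, adjusted p 0.0039, edgeR).

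BST2 and ISG20 were DEGs in each of the fits that left out 1 library, whereas the call of IFI6 depended on several libraries. Its log2 fold change and adjusted p in edgeR's test were 0.43 and 0.0329 without control library 1, and 0.51 and 0.0114 without control library 3. They were 0.43 and 0.0147 without C3 library 1, and 0.53 and 0.0123 without C3 library 3. With DESeq2, IFI6 had an adjusted p of 0.0129. IFI6 also shares 26.6% of the bases of its canonical transcript with the non-coding gene LINC02574 on the same strand, which had at most 1 count in any library.

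**Figure D2:**
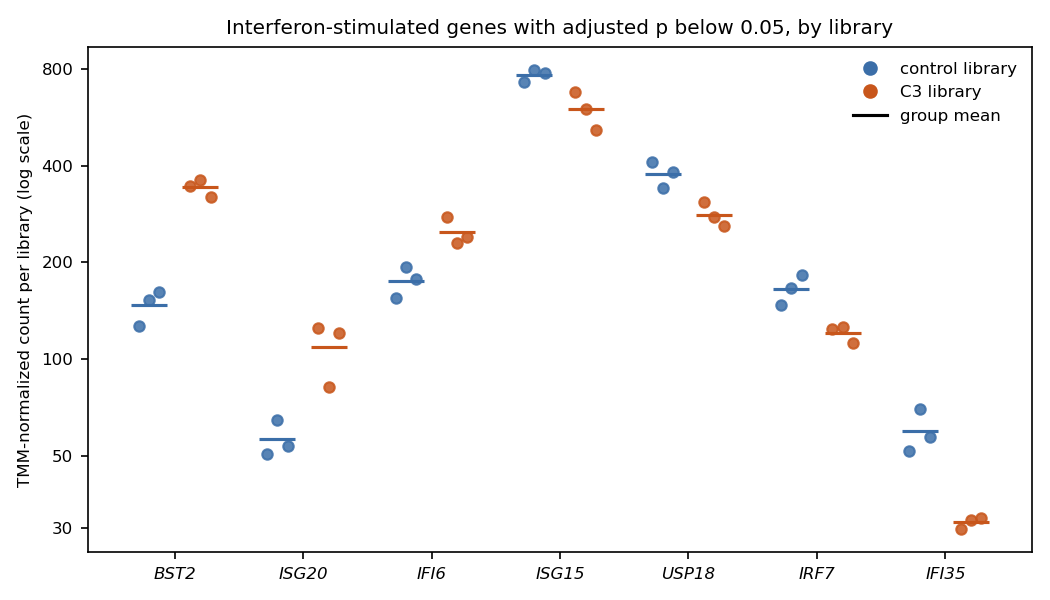
TMM-normalized counts (vertical log axis) in each of the 3 control (blue) and 3 C3 (orange) libraries for the 7 interferon genes with an adjusted p below 0.05, with bars at the group means. The C3 libraries lie above the control libraries for BST2, ISG20 and IFI6 and below them for ISG15, USP18, IRF7 and IFI35.

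The promoters of these genes are shown because the 3 higher DEGs share the ISRE core with genes that were not DEGs. Promoter windows from 250 bases before to 50 bases after the start site came from RefSeq (GRCh38.p14), and 33 of the 44 genes had one. GBP2, IFIT2, IFITM2, IFNAR2, IRF3, IRF7, MX2, OAS2, OASL, TRIM22 and USP18 were not in the table. The ISRE core was searched as GAAANNGAAA on both strands, and capitals mark each core. BST2 has 2 overlapping cores that begin 130 bases upstream of the start (chr19:17405738-17405767, minus strand), in a stretch where exons of the divergent gene BISPR and of some MVB12A transcripts are annotated. ISG20 has 1 core that begins 69 bases upstream (chr15:88638937-88638966, plus strand), where exons of ISG20 transcripts are annotated. IFI6 has 3 cores, the farthest beginning 156 bases upstream (chr1:27672246-27672378, minus strand), with no annotated exon in the stretch. ISG15 (chr1:1013354-1013429, plus strand) has 2 overlapping cores, within the annotated span of the gene but outside exons. IFITM3 (chr11:320861-320942, minus strand) has 2 cores, also outside annotated exons.

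BST2: tttctggGAAACTGAAACTGAAAacctaat
ISG20: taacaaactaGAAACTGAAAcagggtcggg
IFI6: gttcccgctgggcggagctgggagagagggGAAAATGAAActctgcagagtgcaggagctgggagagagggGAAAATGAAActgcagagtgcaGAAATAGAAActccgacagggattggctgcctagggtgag
ISG15: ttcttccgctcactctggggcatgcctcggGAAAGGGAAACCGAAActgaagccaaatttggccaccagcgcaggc
IFITM3: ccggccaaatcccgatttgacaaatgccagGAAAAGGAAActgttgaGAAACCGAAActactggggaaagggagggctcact

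The ISRE core was present in 20 of the 33 windows (60.6%), and in 996 of all 27326 RefSeq promoter windows (3.64%). The log2 fold changes of the 17 tested genes with the core ran from 1.22 (BST2) to -0.37 (ISG15, not a DEG). The GAS core, TTCNNNGAA, was present in 9 of the 33 windows (27.3%) against 7.88% of all windows, and 5 windows had both cores. BST2 has 2 GAS cores, of which the one beginning 136 bases upstream overlaps only the ISRE core that begins 130 bases upstream. The lower DEG IFI35 has 1 GAS core beginning 22 bases upstream and no ISRE core in its window. A match describes these letters only, and binding of a factor was not measured.

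**Figure D3:**
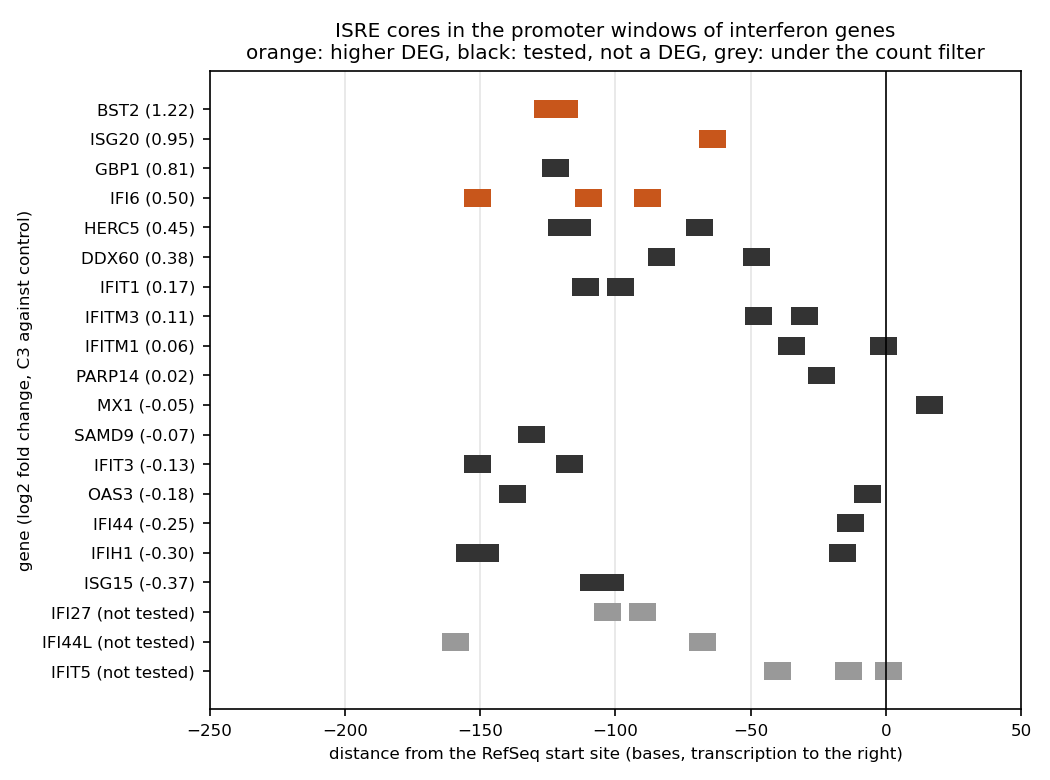
Position of each ISRE core (bars) relative to the RefSeq start site, in bases on the horizontal axis, for the 20 interferon genes with a core, with the 17 tested genes ordered from the largest to the smallest log2 fold change, given beside each name, and the 3 genes that were not tested (grey) last. The 3 higher DEGs (orange) have cores 69 to 156 bases upstream, and cores at like distances lie in genes that were not DEGs (black), such as IFIT1 and ISG15.

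The interferons themselves were nearly undetected. Of 21 type I, II and III interferon genes in the table, 20 had 0 counts in all 6 libraries. IFNB1, interferon beta, had 2, 0 and 5 counts in the control libraries and 0, 0 and 1 in the C3 libraries. When nothing is counted, up to 3 counts remain possible, which is 0.056 CPM (counts scaled by the library total) over the control libraries and 0.0517 CPM over the C3 libraries, for counting error only. No interferon gene could therefore be tested, and secreted interferon was not measured.

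The receptor subunits were expressed at different levels. IFNAR1 had normalized counts of 1576, 1600 and 1641 in control and 1654, 1819 and 1810 after C3. The C3 libraries were all higher, but C3 library 1 exceeded control library 3 only slightly. The log2 fold change was 0.13 (SE 0.064) with an adjusted p of 0.144 from edgeR's test. IFNAR2 had normalized counts of 86.2, 63.6 and 62.1 in control and 66.0, 58.4 and 72.1 after C3. Its groups overlapped at a log2 fold change of -0.11 (adjusted p 0.74, edgeR). The IFNAR2 counts are uncertain, because 49.1% of its canonical bases are shared with the readthrough gene IFNAR2-IL10RB on the same strand and 43.99% with IL10RB-DT on the other, and the strand setting of the counting is not given in the sources used here.

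Among the transcription factors, IRF7, the factor that amplifies interferon production, had the largest difference. Its normalized counts were 148, 166 and 183 in control and 124, 126 and 112 after C3. All C3 libraries were below all control libraries. The log2 fold change was -0.46 (SE 0.14) with an adjusted p of 0.0189 in edgeR's test, which misses the gate of 0.01. The adjusted p was above 0.05 without control library 2 (0.0646, log2 fold change -0.45), without control library 3 (0.0787, -0.38) and without C3 library 3 (0.116, -0.40). It was also above 0.05 with DESeq2 (adjusted p 0.0544, -0.46) and with library size alone (adjusted p 0.0538, -0.38), and below 0.01 with the replicate block (adjusted p 0.00948, -0.46).

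STAT2, a factor phosphorylated at the receptor, had normalized counts of 382, 386 and 377 in control and 380, 430 and 409 after C3. The groups overlapped through C3 library 1, and the log2 fold change was 0.091 (adjusted p 0.517, edgeR). IRF1, an activator induced by interferon gamma, had 506, 477 and 441 normalized counts in control and 448, 445 and 436 after C3. C3 libraries 1 and 2 lay within the control range, with a log2 fold change of -0.10 (adjusted p 0.434, edgeR). IRF3, which is activated by phosphorylation after RNA or DNA sensing, had 1668, 1638 and 1582 in control and 1793, 1557 and 1563 after C3. C3 library 1 was the highest and the other C3 libraries the lowest, so that the log2 fold change was 0.0046 (adjusted p 0.972, edgeR). IRF3 shares 14.2% of its canonical bases with BCL2L12 on the other strand, and IRF1 shares 16.3% with IRF1-AS1, so part of their reads is uncertain.

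IRF9, which binds the ISRE together with STAT2, had 5, 7 and 6 raw counts in control and 5, 8 and 11 after C3 and was not tested. Of its canonical bases, 93.1% are shared with an unnamed gene of the same strand (ENSG00000259529), which itself had at most 4 counts in any library. Reads that lie on both genes may not have been counted for either, which was not tested. The IRF9 counts are therefore uncertain.

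The sensors of viral RNA were at moderate to low levels. RIGI, the receptor for 5'-triphosphate RNA, had normalized counts of 75.4, 77.4 and 82.4 in control and 56.9, 47.9 and 69.0 after C3. The groups did not overlap, but the log2 fold change of -0.42 (95% interval -0.81 to -0.030) had an adjusted p of 0.124 in edgeR's test. IFIH1 (MDA5), the sensor of long double-stranded RNA, had a log2 fold change of -0.30 (adjusted p 0.23, edgeR) with overlapping groups. DDX60, a helicase linked to RIGI signalling, had mean normalized counts of 21.1 in control and 27.2 after C3, and its interval from -0.27 to 1.03 was wide.

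The ISG15 pathway and the ligases around it held 1 lower DEG. USP18, the protease that removes ISG15 from proteins and blocks signalling at IFNAR2, had normalized counts of 409, 340 and 382 in control and 307, 277 and 260 after C3. All C3 libraries were below the lowest control library. The mean fell from 377 ± 34.8 to 281 ± 24.2 (SD, n = 3 each), a log2 fold change of -0.43 (SE 0.10) with an adjusted p of 0.00317 from edgeR's test. The call was lost without control library 1 (-0.35, adjusted p 0.0405), without control library 3 (-0.42, 0.0121) and without C3 library 3 (-0.37, 0.0377). It was also lost when libraries were scaled by library size alone (-0.36, adjusted p 0.0163).

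ISG15 itself, the ubiquitin-like modifier, had normalized counts of 730, 793 and 779 in control and 679, 599 and 516 after C3. C3 library 1 was closest to the control libraries and C3 library 3 farthest. The log2 fold change was -0.37 (SE 0.086) with an adjusted p of 0.00321 in edgeR's test, just short of the fold change gate of 0.38 on the log2 scale. It passed the gates with limma-voom on all libraries (-0.379, adjusted p 0.00292). In edgeR's test it passed them without control library 1 (-0.39, adjusted p 0.00922) and without C3 library 1 (-0.46, adjusted p 0.000264). Without C3 library 3 it had -0.26 with an adjusted p of 0.0621.

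The ligase genes varied. HERC5, the main ISG15 ligase, had mean normalized counts of 27.5 in control and 37.1 after C3, with an interval from -0.17 to 1.06. HERC6, a related ligase, had a log2 fold change of -0.46 (adjusted p 0.0884, edgeR), with all C3 libraries below all control libraries. TRIM25, which activates RIGI by ubiquitination, was abundant, with normalized counts of 1868, 1854 and 1656 in control and 1645, 1615 and 1646 after C3. Control library 3 was near the C3 libraries, and the log2 fold change was -0.13 (adjusted p 0.153, edgeR). TRIM22, an antiviral ligase, had -0.066 with overlapping groups and turned to 0.0094 when scaled by library size alone.

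The IFITM proteins block fusion of viruses with endosomes and the plasma membrane. Their transcripts were the most abundant among the interferon genes of the list. IFITM3 had normalized counts of 3759, 3995 and 3924 in control and 4754, 3864 and 4035 after C3. C3 library 1 stood above all others, and C3 library 2 lay within the control range. IFITM2 had 3742, 3775 and 3676 in control and 4048, 3469 and 3608 after C3. IFITM1 had 1686, 1768 and 1799 in control and 1900, 1865 and 1714 after C3. In both genes the groups overlapped, and C3 library 1 was again the highest.

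The log2 fold changes were 0.11 for IFITM3, -0.0097 for IFITM2 and 0.060 for IFITM1, with adjusted p of 0.271, 0.939 and 0.565 from edgeR's test. For IFITM2 the sign turned when scaled by library size alone (0.062). The IFITM genes are close paralogs, so reads may be shared between them. Together they held 44.9% to 48.9% of the summed normalized counts of the list, and the highest share was in C3 library 1. The normalized counts of all 44 genes summed to 20449, 20820 and 20467 in control and to 21877, 20429 and 20283 after C3, so that the groups overlapped, with C3 library 1 the highest and C3 libraries 2 and 3 the lowest. Without TMM scaling the sums were 1081, 1088 and 1061 CPM in control and 1164, 1144 and 1133 CPM after C3, where the groups did not overlap.

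Levels of different genes were compared per length, as normalized counts per kb of canonical transcript. In control cells the highest of the list were IFITM3 (6370), IFITM2 (3709), IFITM1 (2621), ISG15 (1204) and IRF3 (1022). The same 5 genes were highest after C3, where IRF3 (1027) was above ISG15 (939). BST2 went from 147 to 342 per kb, which is still far below the IFITM genes.

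**Figure D4:**
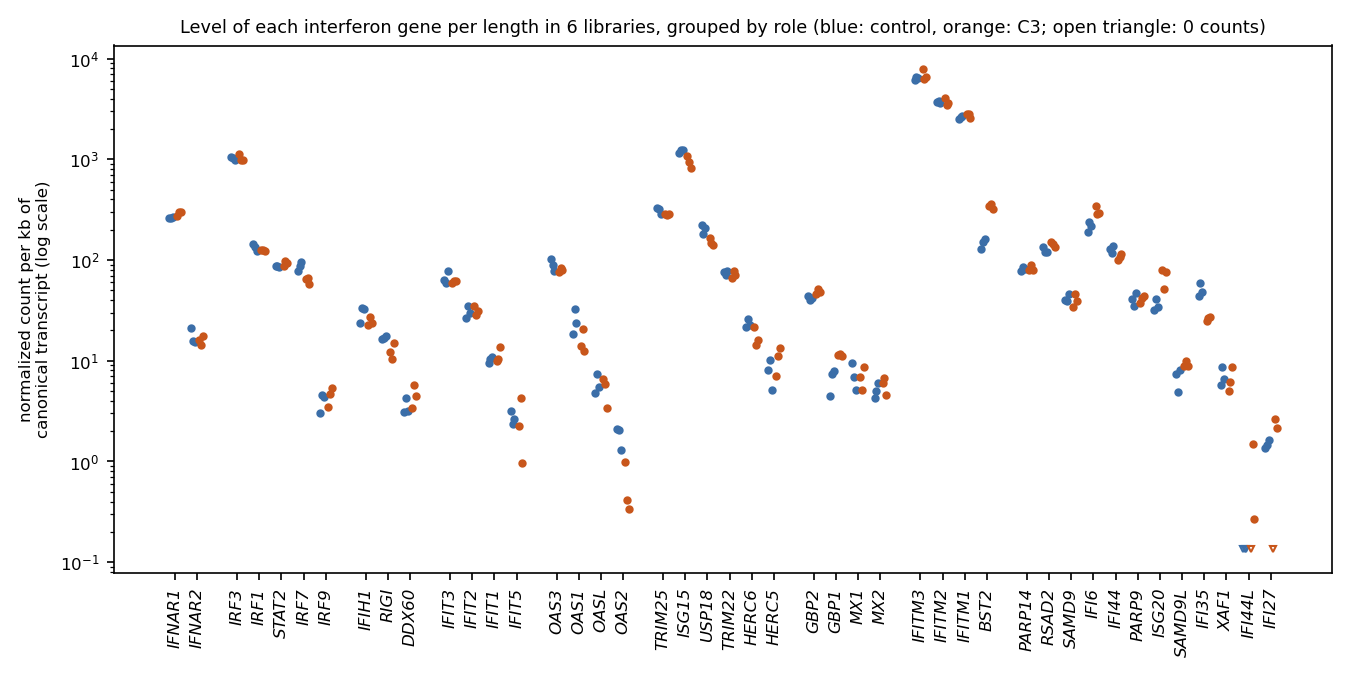
Normalized counts per kb of canonical transcript (vertical log axis) of all 44 interferon genes in the 3 control (blue) and 3 C3 (orange) libraries, grouped by role; open triangles mark libraries with 0 counts, drawn below the lowest value above 0. The levels run from 0 counts (IFI44L in control) to control means of 2621 to 6370 per kb for the IFITM genes.

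The IFIT genes encode proteins that bind foreign 5' ends of RNA. IFIT1 had mean normalized counts of 44.1 in control and 49.0 after C3, with a log2 fold change of 0.17 (95% interval -0.29 to 0.63). IFIT2 had 0.060 and IFIT3 -0.13, both with overlapping groups. Left-out libraries turned the sign of IFIT2, to -0.026 without control library 1 and to -0.012 without C3 library 1. The log2 fold change of IFIT1 was 0.0088 without C3 library 3, and that of IFIT3 was -0.0083 without control library 3. IFIT5 had 13, 9 and 9 raw counts in control and 8, 18 and 5 after C3. The IFIT genes are paralogs and may share reads.

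The OAS enzymes make 2'-5' oligoadenylates that activate RNase L. OAS3 was the most abundant of the tested ones, with mean normalized counts of 590 ± 77.3 in control and 523 ± 22.97 after C3 (SD, n = 3 each) and a log2 fold change of -0.18 (adjusted p 0.164, edgeR). The OAS3 value was -0.062 without control library 1 (adjusted p 0.718, edgeR) and -0.26 without control library 3 (adjusted p 0.0401, edgeR). OAS1 had 30.4, 53.0 and 38.2 in control and 22.8, 33.5 and 20.4 after C3. The groups overlapped, and the log2 fold change of -0.67 (95% interval -1.27 to -0.064) had an adjusted p of 0.113 in edgeR's test. OASL, a catalytically inactive relative, had -0.20 at mean normalized counts of 19.3 and 17.2. OAS2 had 10, 9 and 5 raw counts in control and 4, 2 and 2 after C3 and was not tested. Reads may be shared among the OAS genes.

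The dynamin-like GTPases were low except GBP2. GBP1, a GTPase that coats intracellular bacteria, had normalized counts of 12.7, 21.2 and 22.7 in control and 33.0, 33.5 and 32.2 after C3. The groups did not overlap, but the log2 fold change of 0.81 (95% interval 0.18 to 1.45) had an adjusted p of 0.0643 in edgeR's test. GBP2 had mean normalized counts of 172 in control and 198 after C3, with a log2 fold change of 0.20 (adjusted p 0.247, edgeR). MX1 and MX2, which trap viral nucleocapsids, had mean normalized counts below 20 in both groups. Their log2 fold changes were -0.048 for MX1, which was 0.026 when scaled by library size alone, and 0.18 for MX2. GBP1 with GBP2, and MX1 with MX2, are paralogs whose reads may be shared.

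Among the remaining response genes, IFI35, a leucine zipper protein that pairs with NMI, had the largest decrease. Its normalized counts were 51.9, 70.0 and 57.3 in control and 29.6, 31.6 and 32.2 after C3. The C3 libraries were close to each other and all below the control libraries. The mean fell from 59.7 ± 9.28 to 31.1 ± 1.34 (SD, n = 3 each), a log2 fold change of -0.93 (SE 0.23) with an adjusted p of 0.00489 from edgeR's test.

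The call of IFI35 was lost in all but 1 of the fits with a library left out, although the size of the difference changed little. The log2 fold change and adjusted p were -0.80 and 0.0464 without control library 2, and -0.96 and 0.012 without control library 3. They were -0.90 and 0.0115 without C3 library 1, -0.94 and 0.0133 without C3 library 2, and -0.96 and 0.0222 without C3 library 3. The adjusted p was 0.0104 with scaling by library size alone and 0.019 with DESeq2.

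RSAD2 (viperin), which makes a chain-terminating nucleotide, had mean normalized counts of 422 in control and 488 after C3, with a log2 fold change of 0.20 (adjusted p 0.0967, edgeR) and all C3 libraries above all control libraries. SAMD9L, a translation inhibitor, had 0.45 (adjusted p 0.147, edgeR), also without overlap, and its neighbour SAMD9 had -0.073 with overlap. IFI44 had -0.25 (adjusted p 0.143, edgeR) without overlap. The ADP-ribosyltransferase PARP14 had 0.015 at a mean normalized count of 632, PARP9 had 0.0092, and the apoptosis factor XAF1 had -0.050 with an interval from -0.71 to 0.61. XAF1 shares 74.2% of its canonical bases with PRAL on the other strand, which had at most 2 counts in any library. The signs of SAMD9 and XAF1 turned when scaled by library size alone.

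IFI27 and IFI44L, which are strongly induced by interferon in blood cells, were almost absent. IFI27 had 1, 1 and 1 raw counts in control and 0, 2 and 2 after C3. IFI44L had 0 in each control library and 0, 9 and 2 after C3. All of the IFI44L counts came from C3 libraries 2 and 3, and most from library 2, so no fold change is given.

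**Figure D5:**
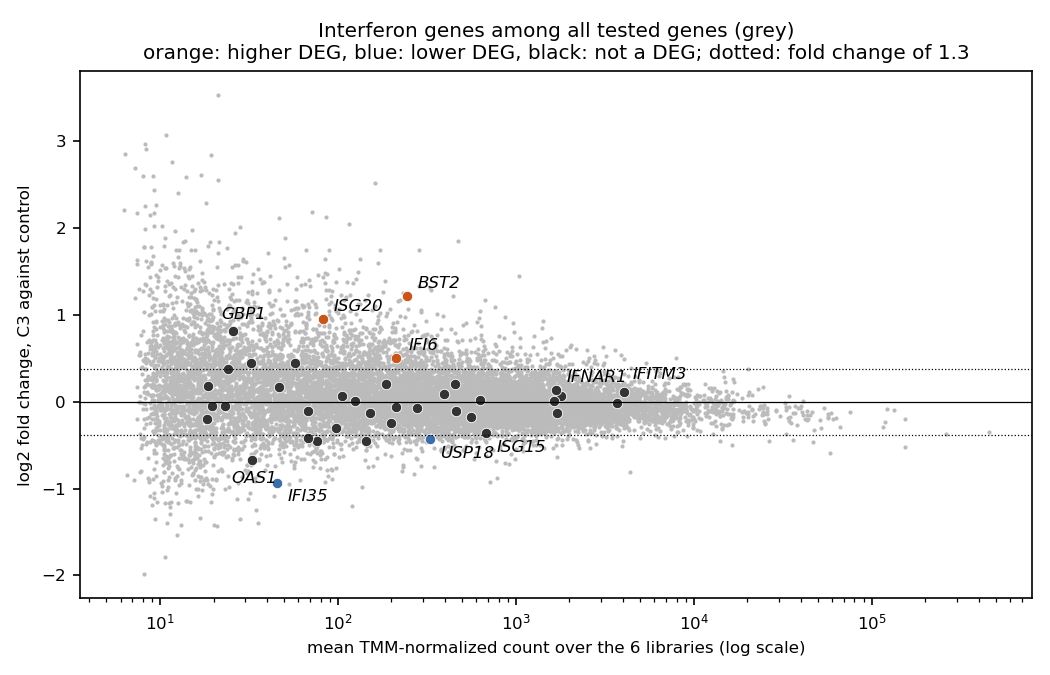
Log2 fold change (C3 against control, vertical axis) against the mean TMM-normalized count over the 6 libraries (horizontal log axis) for all 15078 tested genes (grey) and the 39 tested interferon genes (coloured by DEG call), with dotted lines at a fold change of 1.3. The interferon genes lie on both sides of 0, with BST2 (1.22) farthest above and IFI35 (-0.93) farthest below.

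Among other genes of receptor and kinase signalling, JAK1 and TYK2 had log2 fold changes of -0.066 (adjusted p 0.492) and 0.013 (adjusted p 0.921) in edgeR's test, and JAK1 turned to 0.0084 when scaled by library size alone. SOCS1, a feedback inhibitor of JAK kinases, had mean normalized counts of 652 ± 18.9 in control and 820 ± 107 after C3 (SD, n = 3 each). Its log2 fold change was 0.32 (adjusted p 0.00677, edgeR), short of the fold change gate. It passed both gates when scaled by library size alone (0.40, adjusted p 0.00164) and without C3 library 3 (0.43, adjusted p 0.00149), but with any other library left out the adjusted p was 0.0142 to 0.03, and without C3 library 1 the log2 fold change was 0.24. DESeq2 gave an adjusted p of 0.0169 and limma-voom 0.0114. SOCS3, its relative, had 0.31 (adjusted p 0.0251, edgeR) and passed both gates with library size alone (0.38, adjusted p 0.00819), and IFNGR1, a chain of the interferon gamma receptor, had 0.19 (adjusted p 0.0881). CRKL, an adaptor, had -0.22 (adjusted p 0.0138, edgeR).

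Of 25 genes of nucleic acid sensing and interferon induction, 17 were tested, with 0 higher DEGs and 1 lower DEG with edgeR, DESeq2 and limma-voom alike. The lower DEG is 5.88% of the tested genes of this list, against 1.47% of all tested genes. At an unadjusted p below 0.05, 1 was higher (5.88%) and 3 were lower (17.6%), against 16.8% and 15.3% of all tested genes. MYD88, the adaptor of most Toll-like receptors, had normalized counts of 1330, 1257 and 1235 in control and 986, 844 and 898 after C3. The groups did not overlap, and the log2 fold change was -0.49 (SE 0.071, adjusted p 1.86e-05, edgeR). STING1, the adaptor of cytosolic DNA sensing, had -0.17 (adjusted p 0.0492, edgeR), and MAVS, the adaptor of RIGI, had 0.17 (adjusted p 0.128, edgeR). TREX1, a DNA exonuclease, had 0 counts in all libraries, and all of its canonical bases are shared with ATRIP on the same strand, which had 233 to 373 counts.

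Of 54 other interferon response genes, 49 were tested, with 1 higher DEG (2.04%) and 3 lower DEGs (6.12%), against 5.05% and 1.47% of all tested genes, and a median log2 fold change of -0.016. At an adjusted p below 0.05 in edgeR's test, whatever the fold change, 2 were higher (4.08%) and 9 lower (18.4%), against 11% and 8.77% of all tested genes. The C3 libraries lay above the control libraries in 7 of them (14.3%) and below in 12 (24.5%), against 17.5% and 16.9% of all tested genes. UBA7, the enzyme that activates ISG15 for conjugation, had normalized counts of 445, 429 and 439 in control and 287, 233 and 260 after C3. The C3 libraries were all lower, with a log2 fold change of -0.76 (SE 0.096, adjusted p 3.33e-06, edgeR). DTX3L, the ubiquitin ligase that pairs with PARP9, had 323, 318 and 365 in control and 217, 207 and 218 after C3. These groups were also apart, with a log2 fold change of -0.65 (SE 0.10, adjusted p 6.71e-05, edgeR).

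PSMB10, a subunit of the immunoproteasome, had -0.56 (adjusted p 0.00117, edgeR), and its call was lost without control library 1 (-0.48, adjusted p 0.0177), control library 2 (-0.50, 0.0125) or C3 library 3 (-0.53, 0.0106). PSMB10 counts are uncertain, since an unnamed same-strand gene covers 56.1% of its canonical bases. SHFL, an inhibitor of ribosomal frameshifting, had 0.54 (adjusted p 0.00543, edgeR). Its call was lost without control library 2 (0.55, adjusted p 0.0231), control library 3 (0.46, 0.0286), C3 library 2 (0.56, 0.012) or C3 library 3 (0.51, 0.0368), and DESeq2 made no higher call in this list. The next smallest p among positive values were those of CIITA, the activator of MHC class II genes, with 0.49 (adjusted p 0.0202), and EIF2AK2, the kinase PKR, with 0.22 (adjusted p 0.0649) in edgeR's test. LY6E, a membrane protein that limits coronavirus entry, had -0.35 (adjusted p 0.000802, edgeR), short of the fold change gate. Further negative values with a smaller p than that of CIITA, named after their values were seen, include NMI, the partner of IFI35, with -0.37 (adjusted p 0.00801) and the aminopeptidase LAP3 with -0.25 (adjusted p 0.00615) in edgeR's test, both also short of the fold change gate. NMI passed both gates without C3 library 2 (-0.41, adjusted p 0.0081) and with the replicate block (-0.39, adjusted p 0.000665), and had an adjusted p above 0.01 with each other library left out.

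The identity of the cells was checked on marker genes. Of 16 megakaryoblast markers, 14 were tested, and ITGA2B was the most abundant with a mean of 12597 counts. GP1BB and PF4 were at 0 in all libraries. All canonical bases of GP1BB are shared with another gene of the same strand. The markers summed to 1900, 1898 and 1802 CPM in control and to 1875, 1841 and 1879 CPM after C3. GP1BA (-0.49, adjusted p 2.17e-06) and TUBB1 (-1.36, adjusted p 0.00253) were lower in edgeR's test, and TUBB1 lost its call without control library 1 (-1.31, adjusted p 0.0127) and without C3 library 1 (-1.12, adjusted p 0.0105). NFE2 had -0.38 (adjusted p 0.000189, edgeR), short of the fold change gate, and ITGB3 had 0.34 (adjusted p 0.0325, edgeR) in the other direction.

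Markers of other blood cells were low. The 6 monocyte markers summed to 37.0, 36.3 and 37.4 CPM in control and to 28.5, 30.02 and 31.0 CPM after C3, with FCGR3A at 0 and LYZ the most abundant (mean 516 counts, log2 fold change -0.51, adjusted p 4.65e-05, edgeR). CSF1R, the other monocyte marker that was tested, had 0.26 (adjusted p 0.277, edgeR), so the lower sum came from LYZ. The part of this difference in the interferon results was not tested. The 3 T cell markers, with CD2 the most abundant, summed to 1.71, 1.88 and 2.54 CPM in control and to 2.48, 2.84 and 1.97 CPM after C3. The 3 B cell markers summed to 4.04, 2.83 and 3.65 CPM in control and to 4.12, 3.27 and 3.11 CPM after C3, with CD79A the most abundant and MS4A1 at 0.

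Of the plasmacytoid dendritic cell markers, which mark the main interferon-producing cells, CLEC4C was at 0 in all libraries, and TCF4, which many cells express, made up most of the sums of 50.1, 50.6 and 58.2 CPM in control and 47.9, 57.4 and 55.2 CPM after C3. The 3 fibroblast markers summed to 0.984, 0.997 and 0.557 CPM in control and to 1.998, 1.72 and 2.10 CPM after C3, with DCN the most abundant by mean count. COL1A1 had 6, 5 and 2 raw counts in control and 12, 11 and 34 after C3, a log2 fold change of 1.89 (adjusted p 0.00942, edgeR). Without control library 1, 2 or 3 its adjusted p was 0.0202, 0.0243 or 0.0431, with log2 fold changes of 2.13, 1.998 and 1.623. The epithelial markers summed to 8.64, 11.2 and 9.90 CPM in control and to 10.96, 9.60 and 9.60 CPM after C3, mostly from EPCAM, with KRT19 at 0. Their part in the interferon results was not tested.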

How the data were processed

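RNA of 3 control and 3 C3 libraries was sequenced by the study. The submitters' processing notes name fastp, STAR 2.6.1d, featureCounts 1.5.0-p3 and DESeq2 with GRCh38; which annotation release and strand setting were used is not given in the sources used here. The authors deposited raw read counts per Ensembl gene without normalization. Columns were assigned to samples by their names. Genes reaching 10 counts in 3 or more libraries were scaled with TMM factors and fitted with edgeR 4.0.16 (quasi-likelihood, R 4.3.3, no replicate block), with Benjamini-Hochberg adjustment over 15078 genes. An SE is the estimate over the root of its F statistic. Positions and overlaps came from GENCODE on GRCh38, with 58207 of 58735 identifiers matched. The members and lists were chosen with earlier results of these data known. Named genes are the DEGs, members with an adjusted p below 0.05, the abundant members of each role, and the genes with the smallest p of each further list. Alternatives were scaling by RLE or by library size alone, fitting without the count filter or at a mean count of at least 50, DESeq2 1.42.0, limma-voom (limma 3.58.1), a replicate block, each library left out, and other gates.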

Additional observations from a re-analysis of the deposited data

How the results depend on the processing

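BST2 (1.13 to 1.29) and ISG20 (0.86 to 1.12) were DEGs under each of 13 alternatives. IFI6, USP18 and IFI35 kept their direction in each fit, with adjusted p up to 0.0329, 0.0405 and 0.0464. Lower interferon DEGs numbered 0 with library size alone, 1 with DESeq2, 1 with a mean count of at least 50 (IFI35 was not among the genes fitted), and 0 to 2 with a library left out. For all genes, lower DEGs numbered 100 with library size alone, 612 without the fold change gate and 129 to 340 with a library left out. The interferon gene median was 0.062 with library size alone, where the all-gene median was 0.076. With the replicate block, 3 higher and 3 lower interferon genes passed (IRF7 added, -0.46, adjusted p 0.00948). Same-numbered libraries did not deviate together over all tested genes (correlations 0.021, -0.047 and 0.030). Pairing that touches only some genes would hardly show in these correlations and was not tested. Signs turned only in uncalled genes. With library size alone the values were 0.062 (IFITM2), 0.0094 (TRIM22), 0.026 (MX1), 0.0032 (SAMD9), 0.027 (XAF1) and 0.0084 (JAK1). DESeq2 gave -0.0033 (PARP9) and -0.0037 (IRF3), and a mean count of at least 50 gave 0.0036 (IFITM2). With a library left out the ranges were -0.026 to 0.18 (IFIT2), -0.073 to 0.039 (IFITM2), -0.379 to 0.077 (OASL), -0.270 to 0.230 (MX1), -0.048 to 0.053 (PARP14), -0.091 to 0.118 (PARP9), -0.181 to 0.017 (SAMD9), -0.315 to 0.136 (XAF1), -0.192 to 0.077 (IFNAR2), -0.061 to 0.041 (IRF3) and -0.034 to 0.047 (TYK2). Of the comparisons of single genes, 741 kept their direction and side of the gates, 30 lost a call, 11 gained one and 32 turned. The cause of these changes was not tested.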

Other observations

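The nearest tested genes on either side of the 5 interferon DEGs were examined after those DEGs were known. PLVAP, 25597 bases from BST2, was a higher DEG, with mean normalized counts of 37.3 ± 16.9 in control and 94.2 ± 10.8 after C3 (SD, n = 3 each) and a log2 fold change of 1.36 (SE 0.24, adjusted p 0.000194, edgeR). BISPR, a non-coding gene that starts 56 bases from BST2 in the opposite direction, had means of 10.02 ± 3.17 and 20.6 ± 2.98 and a log2 fold change of 1.02 (adjusted p 0.0653, edgeR). AHDC1, the left neighbour of IFI6, had 0.33 (adjusted p 0.00174, edgeR) and missed the fold change gate. The other neighbours had log2 fold changes from -0.11 (VAT1, beside IFI35) to 0.33 (PI4KAP1, beside USP18), with adjusted p of at least 0.233 in edgeR's test.

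Some interferon genes lie head to head with a neighbour on the other strand. Among the 120 tested interferon and pathway genes, 3 such pairs had gene starts within 2000 bases. The log2 ratio of PARP9 to DTX3L counts was -1.38, -1.57 and -1.34 in control and -0.93, -0.68 and -0.72 after C3, a difference of 0.65 between group means. The ratio of RSAD2 to CMPK2 was -0.60, -0.62 and -0.64 in control and -0.13, -0.24 and -0.14 after C3, a difference of 0.45. The ratio of PSMB8 to PSMB9 was 3.45, 3.40 and 3.46 in control and 3.18, 2.86 and 3.26 after C3, a difference of -0.34. In each pair the control and C3 libraries did not overlap, and as the rule was chosen after values were seen no test is given. The share of non-overlapping ratios among other gene pairs is not given here. Among single tested genes, the C3 libraries lay entirely above the control libraries in 17.5% and entirely below in 16.9%. The log2 fold changes were 0.0092 for PARP9 and -0.65 for DTX3L, 0.20 for RSAD2 and -0.24 for CMPK2, and -0.13 for PSMB8 and 0.21 for PSMB9.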
